A study of Homo sapiens with 6 samples.

Results

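The genes described here are 9 stress-defence genes of human cells: the ferritin subunits FTH1 (ENSG00000167996) and FTL (ENSG00000087086), HMOX1 (ENSG00000100292), NQO1 (ENSG00000181019), GCLM (ENSG00000023909), GCLC (ENSG00000001084), SOD1 (ENSG00000142168), TXN (ENSG00000136810) and PRDX1 (ENSG00000117450). They were picked by Ensembl ID, with the version cut off, and all 9 were found once each among the 62492 rows of the deposited table. Their symbols come with that list, since the table itself holds IDs without names. Ribosome-protected mRNA fragments, or footprints, were sequenced from WPMY-1, a human prostate stromal myofibroblast line immortalised with a viral large T antigen. In the sh61A group (TRMT61A knockdown, 3 libraries) the cells carried a short hairpin RNA against TRMT61A, the catalytic subunit of the tRNA m1A methyltransferase. In the shcontrol group (TRMT61A wildtype, 3 libraries) they carried a control hairpin. Both groups were made in the same line, and the labels give no drug, no time after hairpin delivery, no clone number and no second TRMT61A hairpin. Nor do they state that libraries within a group were separate cultures, so the p-values here measure only a spread from library to library that may be technical.

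NRF2 is a transcription factor that KEAP1 marks for degradation in unstressed cells. Oxidants and electrophiles release it, and it then binds antioxidant response elements near genes for glutathione synthesis, quinone reduction, thioredoxin, peroxiredoxin and ferritin. Ferritin is also controlled at translation: when iron is scarce, iron regulatory proteins bind the iron-responsive element in the 5′ leader of ferritin mRNA and block ribosome loading. The study's design text names the control of translation by TRMT61A as its question. For these genes the comparison asks whether their footprints differed between sh61A and shcontrol cells.

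Libraries held 12704354 to 17752247 counts in the sh61A group and 6771455 to 8008896 counts in the shcontrol group. Every sh61A library was thus deeper than every shcontrol library, and depth cannot be told apart from the hairpin. Features with any count numbered 14155 to 14635 in sh61A and 14478 to 14824 in shcontrol. All 9 genes passed the filter on low counts, in common with 11653 features in all. Levels below are CPM, counts scaled to a common library total, after scaling by the trimmed mean of M-values (TMM), which sets the typical feature equal between libraries. Fold changes are sh61A over shcontrol from edgeR's quasi-likelihood test, fitted on all tested features and adjusted over all of them by the Benjamini-Hochberg method, with a threshold of 0.05. A footprint count reflects both the amount of an mRNA and the ribosomes on it, and these were not separated here. In bulk lysates, fewer cells carrying a footprint and fewer footprints per cell cannot be told apart. FTH1, FTL, TXN and PRDX1 belong to genes with processed pseudogenes or near-identical relatives, so how the authors' counting treated shared reads could alter their counts. IDs other than the 9 could not be named, so the level of TRMT61A, the stromal markers and further NRF2, iron and antioxidant genes were not analysed here.

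None of the 9 genes passed the adjusted threshold in edgeR, where 3.12% of all tested features did. At an unadjusted p under 0.05 there was 1 of 9, NQO1, beside 16.3% of all tested features. Limma voom called none of the 9, beside 3.8% of all tested features. DESeq2 called NQO1, beside 7.7% of the 9844 features to which it gave an adjusted p. Log2 fold changes were positive for 4 genes and negative for 5, with a median of -0.11 against -0.0047 over all tested features. The median size of the change, sign aside, was 0.32 for the 9 genes and 0.51 for all tested features. That comparison was not matched for abundance. FTH1, FTL, NQO1, SOD1, TXN and PRDX1 were among the 10% of features with the highest mean CPM. There the median coefficient of variation in sh61A was 15.9%, against 77.5% among features about as scarce as HMOX1. Groups did not overlap in 1 of the 9 genes, NQO1, whose 3 sh61A libraries all lay below the 3 shcontrol libraries. That order was found in 12.7% of all tested features, and the opposite order, which none of the 9 showed, in 12.2%.

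**Figure D1:**
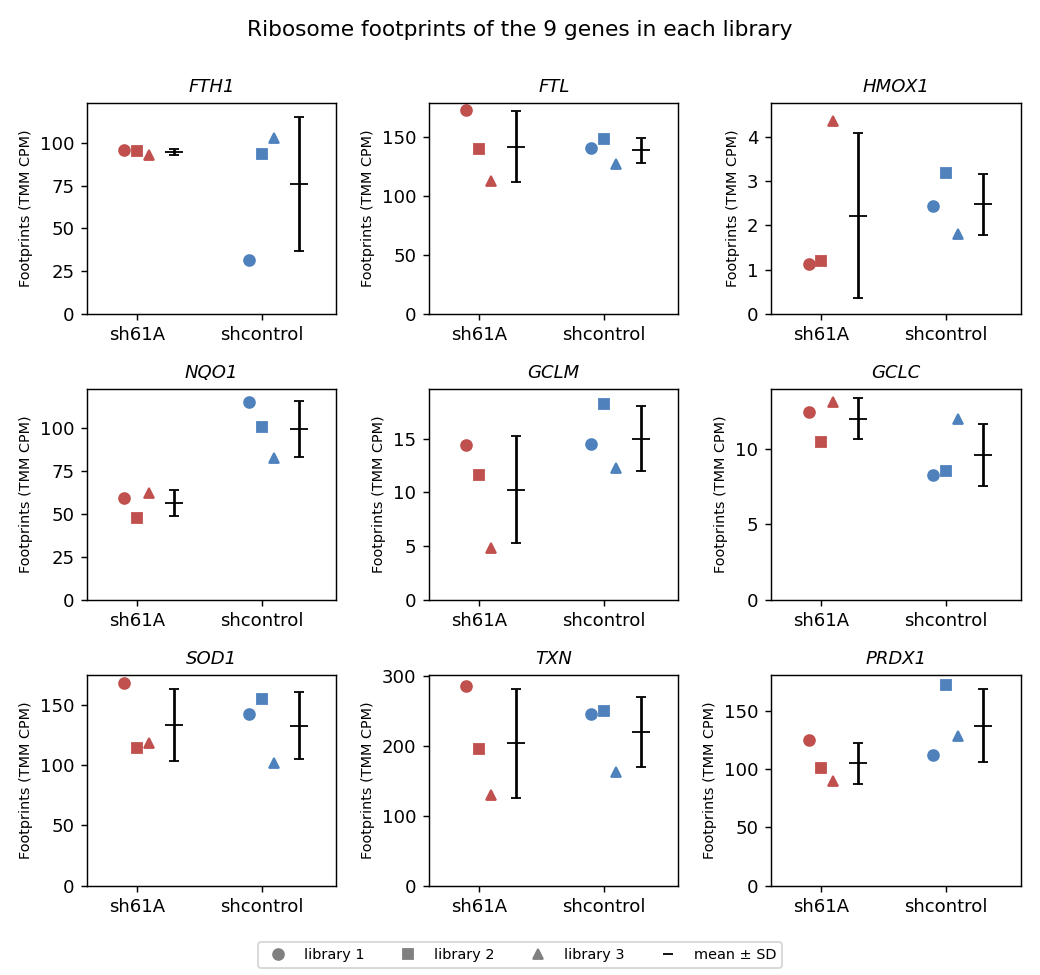
Footprints of each gene in each library (vertical axis, TMM-scaled CPM from 0; each panel has its own scale), with sh61A left of shcontrol; points are libraries and the bar is the mean ± SD (n = 3 each). The NQO1 groups are apart, at 47.7 to 62.1 CPM in sh61A and 82.1 to 115 CPM in shcontrol, and a single shcontrol library of FTH1 sits low at 31.2 CPM.

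NQO1 encodes a quinone reductase that spares cells the redox cycling of quinones and is a classic NRF2 target. Its footprints stood at 59.0, 47.7 and 62.1 CPM in sh61A libraries 1 to 3, against 115, 100.5 and 82.1 CPM in shcontrol libraries 1 to 3. The highest sh61A library was thus below the lowest shcontrol library. The means were 56.3 ± 7.6 CPM in sh61A and 99.2 ± 16.4 CPM in shcontrol (SD, n = 3 each). The log2 fold change was -0.82 ± 0.23 (SE), a fold of 0.568 with a 95% interval of 0.400 to 0.807. In edgeR its unadjusted p was 0.0043 and its adjusted p was 0.0839, so the difference did not pass. The raw counts were 898, 563 and 767 in sh61A and 847, 820 and 724 in shcontrol, so the lower CPM appears only once the greater depth of the sh61A libraries is taken into account.

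The NQO1 call turned on the method. It passed in 3 of 14 alternatives: DESeq2 (adjusted p = 0.0235), scaling by library size alone (0.0405, edgeR) and a filter of at least 10 CPM in 3 libraries (0.0425, edgeR). DESeq2's share of calls is given above, and the other 2 fits called 3.41% and 9.85% of the features they tested. With library size alone 63 calls were higher and 334 lower in sh61A, and the median of all tested features was -0.30 on the log2 scale, so that the NQO1 value of -1.09 was -0.79 from the median. Adjusted p over the 14 ran from 0.0235 to 0.245, and the log2 fold change from -1.09 to -0.70. The direction was the same in each, which groups that do not overlap all but fix. A view that needs no scaling between libraries is the share of the 9 genes' own counts that fell to NQO1. It was 6.33%, 6.66% and 9.90% in sh61A libraries, against 14.2%, 10.6% and 11.2% in shcontrol libraries. The mean share was 7.63% ± 1.97 in sh61A and 11.99% ± 1.89 in shcontrol (SD, n = 3 each). The 2 groups were apart on this measure too. NQO1 was not alone in this, since the groups were also apart for FTL and GCLM. The FTL share was higher in sh61A, with means of 18.7% in sh61A and 16.79% in shcontrol. Its log2 fold change was only 0.034. The GCLM share was lower in sh61A, with means of 1.309% in sh61A and 1.796% in shcontrol. In the remaining genes the groups overlapped. Being apart on this measure thus did not single out NQO1. The shares of the 9 genes make up a whole, so a lower share of any gene raises the shares of the rest. In shcontrol library 1 the FTH1 share was the lowest of all libraries, at 3.84%, and the NQO1 share the highest, at 14.2%. How often groups are apart on such a measure among all tested features is not known here. The measure uses the same counts as the fold change and was not tested.

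**Figure D2:**
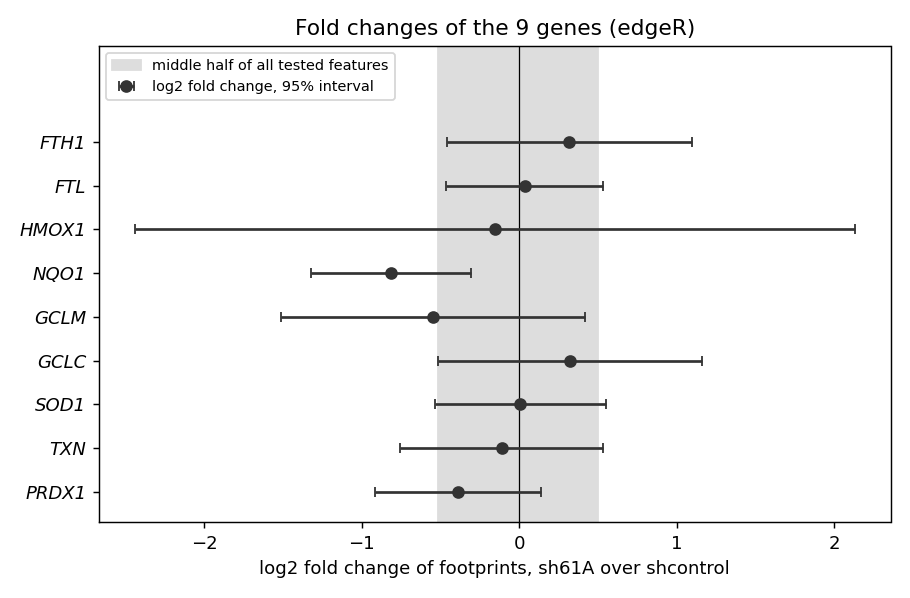
Log2 fold change of footprints, sh61A over shcontrol (horizontal axis), for the 9 genes with 95% intervals from edgeR; the grey band spans the first to the third quartile of all tested features, from -0.51 to 0.50. The NQO1 interval, -1.32 to -0.31, is the only one of the 9 that leaves out 0.

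Ferritin stores iron in a shell of heavy and light chains. FTH1 encodes the heavy chain, which oxidises iron for storage, and FTL the light chain, which helps the iron core form. FTL, one of the 5 genes with an entry in the RefSeq window table, shows the letters of the iron-responsive element's loop in its 5′ leader. This stretch lies at chr19:48965336-48965358 on the plus strand of GRCh38.p14, as RefSeq gives it, and the capitals mark the loop letters CAGTGN at bases 39 to 44 of the transcript.

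FTL leader: tcttgcttcaaCAGTGTttggac

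Those letters, read on the transcript strand, occur within the first 50 bases of 6.36% of the 35116 windows in that table. Among the 5 entries FTL alone had them. The stretch is shown because it names the known site of ferritin's translational control. The match is a description of sequence and carries no measurement.

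FTL footprints were 172.8, 140.2 and 112.9 CPM in sh61A libraries 1 to 3, against 140.5, 148.2 and 127.4 CPM in shcontrol libraries 1 to 3. The shcontrol values lay inside the sh61A range. The means were 142.0 ± 30.0 CPM in sh61A and 138.7 ± 10.6 CPM in shcontrol (SD, n = 3 each). This gave a log2 fold change of 0.034 ± 0.23 (SE; adjusted p = 0.971, edgeR). The 95% interval of the fold was 0.726 to 1.44.

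FTH1 was even across the sh61A libraries and uneven across the shcontrol libraries. It had 95.9, 95.3 and 92.8 CPM in sh61A, against 31.2, 93.4 and 103 CPM in shcontrol. The sh61A values fell within a range of a few CPM, between the values of shcontrol libraries 1 and 3. The coefficient of variation was 1.75% in sh61A and 51.4% in shcontrol. Among the 10% of features with the highest mean CPM, to which FTH1 belongs, the medians were 15.9% in sh61A and 18.5% in shcontrol. The difference in spread was not tested, and 3 libraries give only a loose estimate of a spread. The FTH1 count of shcontrol library 1 was 230, against 762 and 910 in the other two shcontrol libraries. The same library had 140.5 CPM of FTL and 142.1 CPM of SOD1, inside the range of the other libraries. It was the highest of the 6 libraries for NQO1, at 115 CPM, and the lowest for GCLC, at 8.27 CPM. For PRDX1 it was the lowest shcontrol library, at 112.3 CPM. It was thus low in some of the 9 genes and not in others.

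FTH1 had a log2 fold change of 0.32 ± 0.36 (SE; adjusted p = 0.755, edgeR). It rested on that library: without shcontrol library 1 the value was -0.060 (adjusted p = 0.962, edgeR). Over the 14 alternatives it ran from -0.060 to 0.60. The means were 94.7 ± 1.7 CPM in sh61A and 75.9 ± 39.1 CPM in shcontrol (SD, n = 3 each).

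The ratio of FTH1 to FTL counts within a library does not depend on how libraries are scaled. It was 0.555, 0.680 and 0.821 in sh61A libraries 1 to 3, against 0.222, 0.630 and 0.810 in shcontrol libraries 1 to 3. Apart from shcontrol library 1, the 5 libraries lay between 0.555 and 0.821. Intervals of the ratio, from the Wilson 95% interval of the FTH1 share of both counts, were 0.520 to 0.592 for sh61A library 1, the lowest of these 5, and 0.193 to 0.256 for shcontrol library 1. Such intervals cover counting error only, and copies made by PCR are not independent molecules. Log2 ratios averaged -0.56 ± 0.28 in sh61A and -1.05 ± 0.99 in shcontrol (SD, n = 3 each), a difference of 0.48 with p = 0.60 in a two-sided exact permutation test. With 3 libraries against 3 the smallest p this test can give is 0.10. Without shcontrol library 1 the difference was -0.079.

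**Figure D3:**
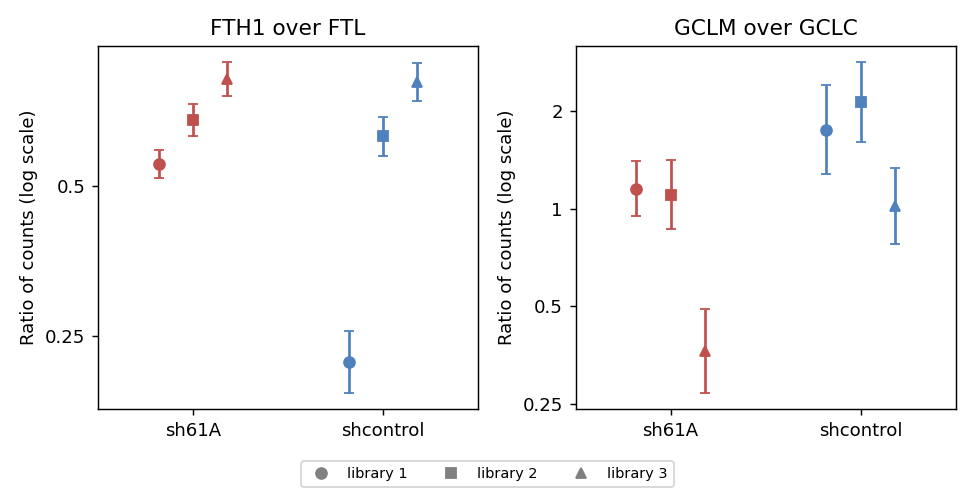
Ratio of FTH1 to FTL counts (left) and of GCLM to GCLC counts (right) in each library, on a log axis, with sh61A left of shcontrol; bars are 95% intervals of the ratio from Wilson intervals of the first gene's share, for counting error only. The FTH1 to FTL ratio of shcontrol library 1, 0.222, lies below those of the other 5 libraries, and the GCLM to GCLC ratio of sh61A library 3, 0.364, is the lowest of its 6.

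By the rule for like patterns, 5900 tested features averaging 10 CPM or more were compared with the mean log2 CPM of FTH1 and FTL over the 6 libraries. ENSG00000078142.13_5 (Pearson's r = 0.997) and ENSG00000167978.17_6 (r = 0.990) were nearest. Both are unnamed here. They were picked as the highest of 5900 values over 6 points, and the low shcontrol library 1 of FTH1 is among those points. FTH1 and FTL had r = -0.037 with each other over the 6 libraries, so their mean is not a pattern that both share.

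HMOX1, heme oxygenase, breaks down heme and frees the iron that ferritin then takes up. It had the fewest counts of the 9 genes: 17, 14 and 54 in sh61A libraries 1 to 3, against 18, 26 and 16 in shcontrol libraries 1 to 3. In CPM these were 1.12, 1.19 and 4.38 in sh61A and 2.44, 3.19 and 1.82 in shcontrol. Sh61A library 3 was above every other library and sh61A libraries 1 and 2 were below every other. Exact Poisson 95% intervals of the counts were 40.6 to 70.5 for sh61A library 3 and 9.9 to 27.2 for sh61A library 1, so the gap within the group exceeded counting error. The means were 2.23 ± 1.86 CPM in sh61A and 2.48 ± 0.69 CPM in shcontrol (SD, n = 3 each). Its log2 fold change of -0.16 ± 1.05 (SE; adjusted p = 0.971, edgeR) had a 95% interval that spans folds of 0.184 to 4.37. Without sh61A library 3 the log2 fold change was -1.09 (adjusted p = 0.776, edgeR). It turned positive without sh61A library 1, sh61A library 2 or shcontrol library 2, at 0.16, 0.14 and 0.061. That interval holds 4-fold differences in both directions, so a difference of that size was not detectable with these counts and this spread.

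Glutamate-cysteine ligase catalyses the first and rate-limiting step of glutathione synthesis. GCLC is its catalytic subunit and GCLM the modifier subunit that raises its efficiency. Within 250 bases upstream of the start site, the core of the antioxidant response element, TGACNNNGC on either strand, occurs in 10.9% of the 35116 RefSeq windows. Of the 5 genes with a window (FTL, NQO1, GCLM, GCLC and TXN), GCLM alone held it. The match lies on the strand opposite to the gene, 34 to 26 bases before the start site. The stretch below is chr1:93909446-93909475 of GRCh38.p14, minus strand, from RefSeq, and the capitals mark the match.

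GCLM upstream: ctacgatttctGCTTAGTCAttgtcttcca

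The stretch shows where the NRF2 motif letters sit near a gene of this group. A window without these letters says nothing of NRF2, whose sites often lie farther from the start.

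GCLM had 14.4, 11.6 and 4.78 CPM in sh61A libraries 1 to 3, against 14.5, 18.3 and 12.3 CPM in shcontrol libraries 1 to 3. The groups overlapped through sh61A library 1, and sh61A library 3 was the lowest of the 6. The means were 10.3 ± 4.9 CPM in sh61A and 15.0 ± 3.0 CPM in shcontrol (SD, n = 3 each). For GCLM the log2 fold change came to -0.55 ± 0.44 (SE; adjusted p = 0.634, edgeR). Without sh61A library 3 it was -0.20 (adjusted p = 0.882, edgeR).

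GCLC gave 12.5, 10.5 and 13.1 CPM in sh61A, against 8.27, 8.58 and 12.0 CPM in shcontrol. The overlap came from shcontrol library 3, which lay above sh61A library 2. The means were 12.0 ± 1.4 CPM in sh61A and 9.63 ± 2.08 CPM in shcontrol (SD, n = 3 each). For GCLC the log2 fold change came to 0.32 ± 0.38 (SE; adjusted p = 0.774, edgeR).

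The modifier and catalytic subunits thus had log2 fold changes of opposite sign, neither past the threshold. Within libraries the ratio of GCLM to GCLC counts was 1.15, 1.10 and 0.364 in sh61A, against 1.75, 2.13 and 1.02 in shcontrol. Shcontrol library 3 lay within the sh61A range and the other two shcontrol libraries above it. The mean log2 ratio was -0.37 ± 0.94 in sh61A and 0.64 ± 0.55 in shcontrol (SD, n = 3 each). The difference of -1.01 gave p = 0.30 in a two-sided exact permutation test. Without sh61A library 3 the difference was -0.47.

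SOD1 is the cytosolic copper-zinc superoxide dismutase, which turns superoxide into hydrogen peroxide. Its footprints were 167.7, 113.8 and 118.0 CPM in sh61A libraries 1 to 3, against 142.1, 154.4 and 101.2 CPM in shcontrol libraries 1 to 3. The ranges overlapped over most of their length. The means were 133.2 ± 30.0 CPM in sh61A and 132.5 ± 27.9 CPM in shcontrol (SD, n = 3 each). SOD1 thus had a log2 fold change of 0.0072 ± 0.25 (SE; adjusted p = 0.996, edgeR). Its fold had a 95% interval of 0.689 to 1.47.

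TXN encodes thioredoxin, which reduces oxidised thiols, peroxiredoxins among them. It had 284.7, 195.0 and 129.6 CPM in sh61A libraries 1 to 3, against 245.7, 250.0 and 162.4 CPM in shcontrol libraries 1 to 3. Both the highest and the lowest of the 6 values came from sh61A. The coefficient of variation was 38.3% in sh61A and 22.5% in shcontrol, where the medians of the most abundant 10% of features were 15.9% and 18.5%. The means were 203.1 ± 77.9 CPM in sh61A and 219.4 ± 49.4 CPM in shcontrol (SD, n = 3 each). TXN had a log2 fold change of -0.11 ± 0.30 (SE; adjusted p = 0.921, edgeR), and its fold a 95% interval of 0.592 to 1.45.

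PRDX1 is a peroxiredoxin that removes hydrogen peroxide at the expense of thioredoxin. It gave 124.8, 100.7 and 89.8 CPM in sh61A, against 112.3, 172.4 and 128.2 CPM in shcontrol. Sh61A libraries 2 and 3 were below all shcontrol libraries, and sh61A library 1 lay among them. The means were 105.1 ± 17.9 CPM in sh61A and 137.6 ± 31.1 CPM in shcontrol (SD, n = 3 each). PRDX1 had a log2 fold change of -0.39 ± 0.24 (SE; unadjusted p = 0.134, adjusted p = 0.495, edgeR). The 95% interval of its fold ran from 0.530 to 1.10. Without shcontrol library 2 the log2 fold change was -0.20, and with library size alone it was -0.71, or -0.41 from the median of all tested features.

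**Figure D4:**
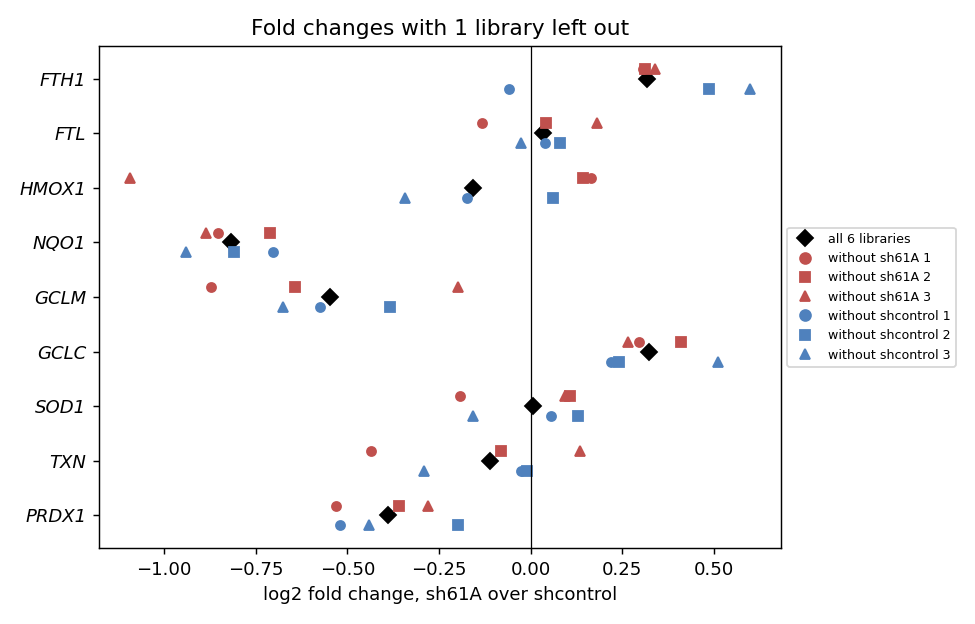
Log2 fold change, sh61A over shcontrol (horizontal axis), of each gene with all 6 libraries (black diamonds) and with 1 library left out (red for sh61A, above; blue for shcontrol, below). Values of NQO1 stay between -0.94 and -0.70, those of GCLM, GCLC and PRDX1 also keep their sign, and those of the other 5 genes cross 0.

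Together the 9 genes held 0.0799%, 0.0636% and 0.0610% of all counts in sh61A libraries 1 to 3, against 0.0748%, 0.114% and 0.0879% in shcontrol libraries 1 to 3. Sh61A library 1 lay within the shcontrol range and the other two sh61A libraries below it. The mean share was 0.0682% ± 0.0103 in sh61A and 0.0923% ± 0.0201 in shcontrol (SD, n = 3 each). The difference of -0.0241 percentage points gave p = 0.20 in a two-sided exact permutation test. Without shcontrol library 2, the library with the highest share, the difference was -0.0131 percentage points. These shares move with the features that take most of a library: the 50 most abundant features, none of them among the 9 genes, held 61.5% to 72.8% of the counts. Of the counts outside those 50, the 9 genes held 0.294%, 0.227% and 0.201% in sh61A and 0.256%, 0.304% and 0.228% in shcontrol, where the groups overlapped and the exact p was 0.50.

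Some signs depended on how libraries were scaled. When libraries were scaled by size alone, without TMM, the median log2 fold change of all tested features moved to -0.30, and FTH1, FTL and SOD1 had values of -0.047, -0.27 and -0.29. Measured from that median they stood at 0.25, 0.030 and 0.013. From the TMM median they stood at 0.32, 0.039 and 0.012, and NQO1 at -0.81.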

How the data were processed

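The authors deposited whole-number counts of reads for each Ensembl ID and library, and the values show no normalization. Trimming and alignment tools (fastp, Bowtie 1.3.1) and the build hg38 are named in the submitters' processing notes. Which tool and annotation gave the counts, and whether strand was used, is not given in the sources used here. Footprints were RNase I fragments from purified monosomes, depleted of ribosomal RNA and size-selected, per the labels' protocols. No molecular identifiers are described. The 3 columns named vec were matched to the shcontrol samples through assay and number. The table's 6 columns named for RNA belong to no sample described here and were not used, so no mRNA level or translational efficiency is given. The gene table at hand (59792 rows) held no Ensembl IDs, so it could match none of the 62492 IDs.

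Counts were filtered with filterByExpr, scaled by TMM and tested with edgeR 4.0.16 in R 4.3.3 (quasi-likelihood F-test, two-sided, all 6 libraries). The SE is the log2 fold change divided by the square root of F. Alternatives were DESeq2 1.42.0, limma 3.58.1 with voom, other scalings and filters, a block for replicate number, and fits without 1 library. The fitting code was run on simulated data, and its outcome is not given here, so it says nothing of the power to call these genes. The common coefficient of variation between libraries that edgeR estimated was 54.4%. Same-numbered libraries were not paired: their deviations correlated at -0.0065, -0.015 and 0.039. Within each group, every pair of libraries differed by far more than sampling noise (chi-square per degree of freedom at least 33.2). Each library was treated as 1 replicate, though such differences cannot show that libraries came from separate cultures. All 9 genes were named by rule; the genes, lists and tests were chosen with earlier results of these data known. Lists of further NRF2, iron, antioxidant and cell marker genes, set by symbol, got no values because no ID could be named.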

Additional observations from a re-analysis of the deposited data

How the results depend on the processing

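None of the 9 genes was called in the fit as reported; 1, NQO1, was called with DESeq2, with library size alone and with at least 10 CPM in 3 libraries, and 0 under each of the other 11 alternatives. Of 125 fold changes over the alternatives, 110 kept sign and side of the threshold, 3 newly passed it (all NQO1) and 12 changed sign. With library size alone the log2 fold changes of FTH1, FTL and SOD1 were -0.047, -0.27 and -0.29, which count among the sign changes. That scaling moved the median of all features to -0.30, and from that median they were 0.25, 0.030 and 0.013. With 1 library left out, values ran from -0.060 to 0.60 for FTH1, -0.13 to 0.18 for FTL, -1.09 to 0.16 for HMOX1, -0.19 to 0.13 for SOD1, -0.43 to 0.14 for TXN and -0.53 to -0.20 for PRDX1. The FTH1 to FTL log2 difference ran from -0.079 to 0.86 and that of the summed share from -0.0329 to -0.0131 percentage points. Calls over all features numbered 364 of 11653 tested. They were 758 with DESeq2, 735 without a filter, 602 with the 10 CPM filter and 47 to 171 with 1 library left out. Each left-out fit had fewer samples, and these fits tested 11886 to 12706 features. With the replicate block there were 208 calls among 11653 tested features, and NQO1 had -0.81 (adjusted p = 0.137, edgeR). The block called none of the 9. Where so few features are called, as with the block or a library left out, none of 9 says little about these genes. For 1 of the 3 sh61A libraries, the shcontrol library it correlated best with had its own number. HMOX1 had no value under the 10 CPM filter and no adjusted p in DESeq2. The causes were not tested. HMOX1 had the fewest counts of the 9 genes, 14 to 54 per library, and only bounds its change loosely.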
